A study of Homo sapiens with 9 samples.

Results

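The comparison described here sets MDA-MB231 cells that overexpressed RAI2-4A against MDA-MB231 cells that carried the empty vector. The 3 arrays titled RAI2-4A and the 3 titled vector were taken by their titles, 6 of the 9 arrays in the series, and the remaining 3 arrays held cells that overexpressed RAI2. MDA-MB231 is an established human line of triple-negative breast cancer. All cells had been transduced with retrovirus from the amphotropic packaging line φNX-ampho, put under 2 µg/ml puromycin 24 h later and selected for 4 days, so the vector cells went through the same infection and drug. For each array, 500 ng of total RNA was converted to biotin-labelled cRNA and hybridised to a single-colour Illumina bead array. The meaning of 4A is not given in the labels, nor is it given whether replicates were separate cultures or clones. The p-values therefore describe the spread among these particular arrays, which may be technical.

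RAI2 (retinoic acid induced 2) is a nuclear protein reported to bind CtBP1 and CtBP2. The CtBP proteins are corepressors without DNA binding of their own. They are brought to genes by sequence-specific factors such as ZEB1 and in turn bring histone deacetylases and the demethylase KDM1A, which keep epithelial, cell cycle inhibitor and apoptosis genes low. The question was which transcripts the RAI2-4A form changed and which it left where they were.

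Values below are the deposited intensities of each array, on a linear scale, and differences are log2 differences of background-corrected values, RAI2-4A minus vector. A gene was called when limma's adjusted p was under 0.05 over 12437 genes, each represented by its brightest probe. A probe was above background when it exceeded a threshold taken from its own array, at intensities of 99.8 to 104. Between 42.3% and 47.9% of probes lay above it, and the number of arrays limits precision. Across probes, Pearson's r between the 6 arrays ranged from 0.971 to 0.994. Vector replicate 1 and RAI2-4A replicate 2 stood apart from their groups in a shared direction, as did RAI2 replicate 2 among the cells that overexpressed RAI2, and results are given with and without these 3 arrays. The 3 were chosen because they deviated from their groups, so leaving them out reduces the spread by construction. Of 14 genes on the array that mark this mesenchymal line, 13 were above background on all 6 arrays, vimentin (VIM), AXL and caveolin (CAV1) among them. Of 12 luminal genes on the array, ESR1, PGR and FOXA1 were above background on 0 of the 6 arrays. Another 5 (ERBB2, ERBB3, EPCAM, KRT19 and CLDN7) were above it on all 6, and 4 on some.

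RAI2-4A changed few transcripts. Of 12437 genes, 11 were called, or 0.0884% (8 higher, 0.0643%; 3 lower, 0.0241%). The rises were RAI2 itself, the surface protein gene LYPD5, the zinc finger gene ZNF404, the long noncoding RNA LOC100505715, the ERBB regulator LRIG1, the defensin DEFB103A, the let-7e locus MIRLET7E and PRAMEF18. The falls were the phosphatase subunit PPP2R2C, the peptide hormone gene ADM and the small GTPase RASD1. Vector replicate 3, RAI2-4A replicate 1 and vector replicate 2 each moved the count by more than 1.5 times, to 5, 6 and 7 genes when left out. Without the 3 arrays that stood apart the count was 17, of which 8 were among the 11. The 9 further genes were CCL2, FCGBP, HLA-DPA1, HLA-DRA, LIPG, PLAAT4 and TGFBI, which were higher, and AIF1L and CA2, which were lower.

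**Figure D1:**
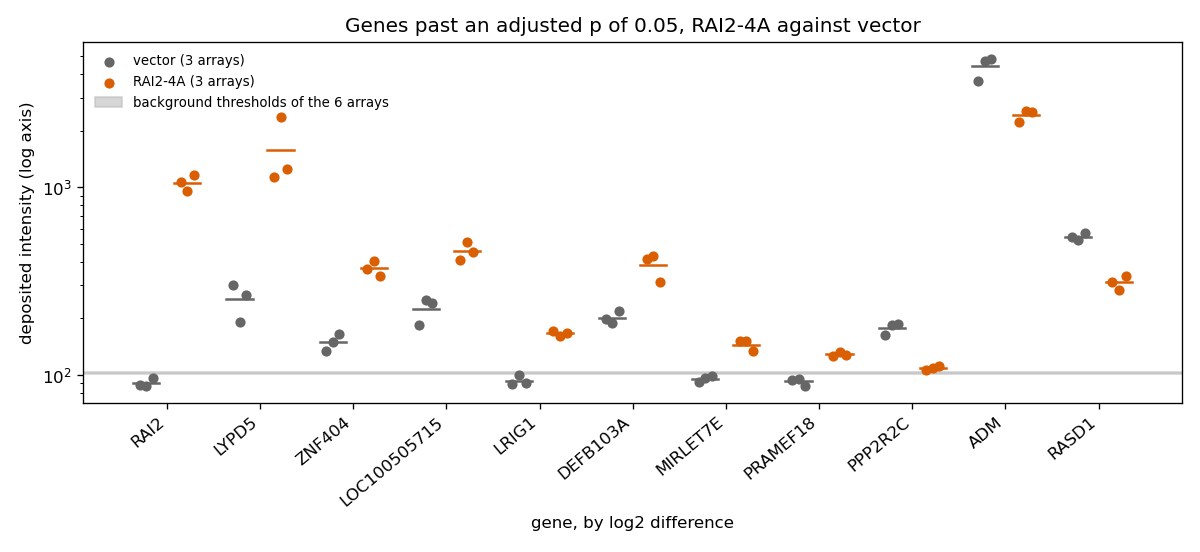
Deposited intensity (log axis) of the 11 called genes on each of the 3 vector and 3 RAI2-4A arrays, 1 point per array and 1 column per gene in order of log2 difference, with the range of background thresholds shaded. The groups do not overlap for any of the 11 genes. RAI2, MIRLET7E, PRAMEF18 and the LRIG1 probe lie at or below the shaded band in vector.

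The RAI2 transcript came first as a check of the labels. Its probe read 88.3, 86.3 and 95.8 in vector replicates 1 to 3 and 1063, 955 and 1158 in RAI2-4A replicates 1 to 3. All 3 RAI2-4A arrays were far above every vector array, and no vector array was above background. RAI2 was at least 10.3-fold higher (limma, adjusted p = 2.49e-10). This bound, like each one below, is on the scale of the deposited intensities and sets the brighter group's mean against the lowest signal above background on each array of the dim group. Cells given RAI2 read 632, 603 and 559, and RAI2-4A arrays were 0.85 log2 units higher than these (SE 0.11, limma, adjusted p = 0.00279). How much of the differences between the forms went with this difference in transcript level was not tested.

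The largest rises after RAI2 lay close together on chromosome 19. LYPD5 encodes a small surface protein of the LY6/PLAUR family. ZNF404 encodes a C2H2 zinc finger protein, and LOC100505715 is annotated as a long noncoding RNA. In the RefSeq gene order LYPD5 is followed by ZNF283, ZNF404 and LOC100505715. The 300 bases around an annotated start of LYPD5 and of ZNF404 (250 before it, 50 from it) are shown because both genes rose and lie close together. They are RefSeq sequences of GRCh38.p14, both on the minus strand, LYPD5 at chr19:43802398-43802697 and ZNF404 at chr19:43883915-43884214, and capitals mark motif matches. LYPD5 spans 43795927 to 43820634, so the start taken for it lies inside the gene, and no other start of it was searched.
LYPD5: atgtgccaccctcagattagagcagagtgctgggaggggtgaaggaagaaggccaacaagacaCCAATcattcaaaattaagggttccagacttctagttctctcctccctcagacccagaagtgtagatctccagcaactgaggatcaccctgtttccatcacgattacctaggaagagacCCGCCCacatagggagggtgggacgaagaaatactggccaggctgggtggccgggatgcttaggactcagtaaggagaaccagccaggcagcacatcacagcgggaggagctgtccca
ZNF404: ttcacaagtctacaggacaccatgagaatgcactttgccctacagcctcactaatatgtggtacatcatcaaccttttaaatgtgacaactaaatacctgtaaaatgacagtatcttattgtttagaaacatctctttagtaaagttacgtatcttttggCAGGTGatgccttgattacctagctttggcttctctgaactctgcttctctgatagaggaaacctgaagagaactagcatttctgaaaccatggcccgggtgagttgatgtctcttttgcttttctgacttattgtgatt
The LYPD5 window held CCAAT at -187 and the GC box GGGCGG at -68 on the opposite strand, counted in bases from the start. The ZNF404 window held CAGGTG, the E-box that ZEB factors bind, at -90. Searched on both strands, these letters occur in 34.6%, 45.0% and 20.6% of 35116 promoter windows of the same length, so each is common. The hypoxia core ACGTG (21.4%), the nuclear receptor motif AGGTCA (13.8%) and TATAAA (11.5%) were in neither window. A match is a description of letters and not a bound site. Of the 11 called genes, 9 had a promoter entry that could be searched.

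LYPD5 read 301, 190 and 267 in vector replicates 1 to 3 and 1139, 2370 and 1251 in RAI2-4A replicates 1 to 3. Every RAI2-4A array was well above every vector array, with replicate 2 the highest. The rise of LYPD5 was 2.72 on the log2 scale (SE 0.25, limma, adjusted p = 0.000203), or 6.57-fold. A second probe gave 140, 147 and 216 in vector and 966, 1224 and 885 in RAI2-4A, a difference of 2.82. The 2 other LYPD5 probes were not above background often enough to be kept and differed by 0.12 and 0.13.

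ZNF404 read 134, 149 and 165 in vector and 365, 405 and 338 in RAI2-4A. The groups were far apart relative to the spread within each, and ZNF404 rose by 1.46 (SE 0.12, limma, adjusted p = 0.00013). LOC100505715 read 184, 251 and 241 in vector and 409, 510 and 451 in RAI2-4A. It rose by 1.11 (SE 0.14, limma, adjusted p = 0.0046), again with no overlap. All 3 genes passed in each of the 9 fits that left out 1 array, and without the 3 arrays that stood apart they rose by 2.54, 1.30 and 0.87.

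Genes around them did not pass. ZNF283, which lies between LYPD5 and ZNF404, read 148, 134 and 170 in vector and 177, 203 and 188 in RAI2-4A. Its arrays did not overlap, but its difference of 0.38 (SE 0.13) did not pass (limma, adjusted p = 0.994), and 993 of all genes (7.98%) had arrays that did not overlap. KCNN4, a calcium-activated potassium channel on the other side of LYPD5, differed by 0.14 (SE 0.14). ZNF45, the nearest tested gene beyond LOC100505715, differed by 0.17 (SE 0.12). SMG9, a factor of nonsense-mediated decay, differed by -0.45 (SE 0.38), with vector replicate 1 far above the other vector arrays. Of 17 tested members of the zinc finger cluster, ZNF404 was the only one called, and the median difference was 0.01, against 0.02 over all genes. Of 8 tested LY6/PLAUR genes, LYPD5 was the only one called, and the median was 0.18.

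**Figure D2:**
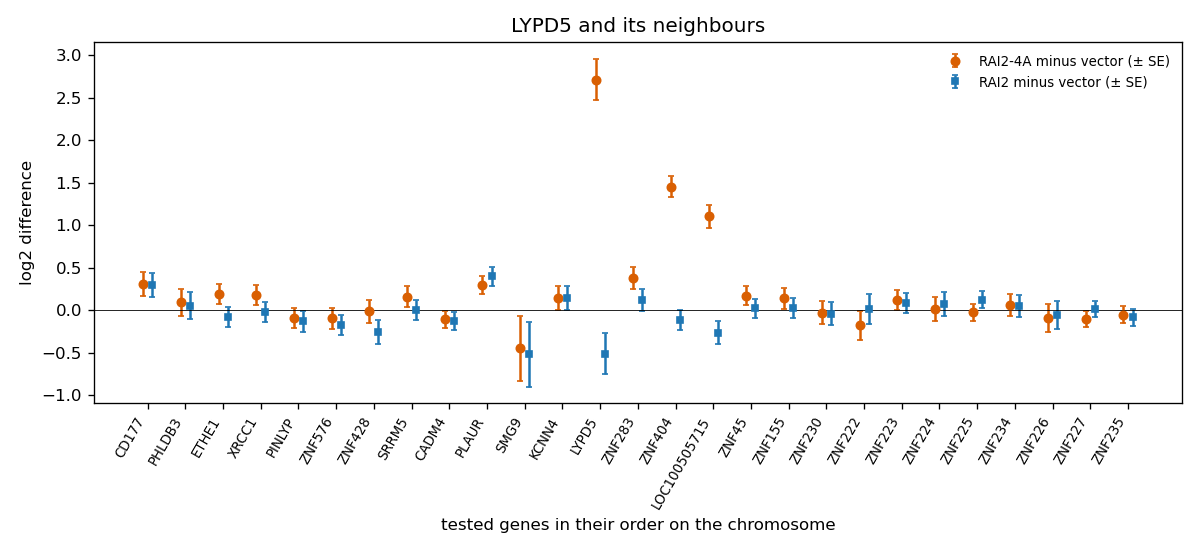
Log2 difference from vector (± SE of the limma fit, 3 arrays per group) for the tested genes around LYPD5, in chromosomal order, for RAI2-4A (circles) and RAI2 (squares). LYPD5, ZNF404 and LOC100505715 stand at 2.72, 1.46 and 1.11 for RAI2-4A and at -0.51, -0.11 and -0.26 for RAI2, while KCNN4 and ZNF45, on either side, stand at 0.14 and 0.17 for RAI2-4A. SMG9 lies at -0.45 for RAI2-4A and -0.52 for RAI2 with a wide error, and PLAUR and CD177 lie at 0.30 and 0.31 for RAI2-4A.

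LRIG1 and DEFB103A rose with both forms, and the RAI2-4A arrays read lower than the RAI2 arrays. LRIG1 encodes a transmembrane protein that lowers ERBB receptor signalling. Its brightest probe read 89.5, 99.2 and 90.1 in vector, 171, 161 and 168 in RAI2-4A and 382, 262 and 252 in RAI2. It was above background on 0 vector arrays, and the rise with RAI2-4A was at least 1.62-fold (limma, adjusted p = 0.016). The other kept probe read 97.9, 107 and 109 in vector and 163, 122 and 155 in RAI2-4A, a difference of 0.58. On every vector array the brightest probe read less than this other probe. It was kept, and was the brightest, only through the RAI2 and RAI2-4A arrays, and its p-value carries this selection. When each kept probe was tested on its own, neither LRIG1 probe was called (limma, adjusted p = 0.0657 for the brightest and 0.993 for the other). DEFB103A encodes beta-defensin 3, an antimicrobial peptide, and has a near-identical copy, DEFB103B, so its probes may read both. It read 198, 188 and 218 in vector and 414, 428 and 312 in RAI2-4A, with no overlap. It rose by 1.01 (SE 0.16, limma, adjusted p = 0.033), and its second probe differed by 0.91. Tested probe by probe, neither was called (limma, adjusted p = 0.132 and 0.201). The entry for DEFB103B differed by 0.10 with RAI2-4A (interval -0.12 to 0.33), which did not pass (limma, adjusted p = 0.994). With RAI2 this entry was higher by 0.63 (limma, adjusted p = 0.018).

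The calls of LRIG1 and DEFB103A depended on single arrays. LRIG1 no longer passed without vector replicate 3, RAI2-4A replicate 1 or RAI2-4A replicate 3 (limma, adjusted p up to 0.112). DEFB103A no longer passed without any 1 of the 3 vector arrays, RAI2 replicate 1, RAI2-4A replicate 1 or RAI2-4A replicate 2 (limma, adjusted p up to 0.215). Without the 3 arrays that stood apart, DEFB103A differed by 0.91 (limma, adjusted p = 0.0534). Of 18 tested ERBB and LRIG genes LRIG1 was the only one called, with a median of 0.02. Of 5 tested antimicrobial peptide genes DEFB103A was the only one, with a median of 0.10.

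The probes of MIRLET7E and PRAMEF18 were above background on the 3 RAI2-4A arrays and on 0 vector arrays. A probe was kept when above background on 3 or more arrays, so both were tested only through the RAI2-4A arrays. Their p-values carry this selection and are not independent support. MIRLET7E holds the precursor of the microRNA let-7e. The let-7 family represses growth genes such as HMGA2 and LIN28B in many tissues. Its 5p arm, shown with the seed (bases 2 to 8) in capitals for orientation, lies at chr19:51692793-51692814 of GRCh38.p14 on the plus strand (RefSeq).
hsa-let-7e-5p: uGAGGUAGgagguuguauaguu
The array probe is assigned to the gene and not to a mature arm, so the values say nothing of the mature microRNA. MIRLET7E read 91.3, 95.8 and 98.3 in vector and 151, 150 and 133 in RAI2-4A. It was at least 1.41-fold higher (limma, adjusted p = 0.0145), and no longer passed without vector replicate 2, vector replicate 3, RAI2-4A replicate 1 or RAI2-4A replicate 2 (limma, adjusted p up to 0.112). PRAMEF18, of the PRAME family of cancer-testis genes, read 94.0, 94.9 and 87.1 in vector and 126, 133 and 127 in RAI2-4A. It was at least 1.25-fold higher (limma, adjusted p = 0.048) and did not pass in any of the 9 fits that left out 1 array (limma, adjusted p up to 0.267). PRAMEF18 has close paralogs that its probe may also read. Without the 3 arrays that stood apart, MIRLET7E and PRAMEF18 did not pass (limma, adjusted p = 0.0614 and 0.129). Of 22 tested genes of let-7 processing and let-7 targets, MIRLET7E was the only one called, with a median of 0.01.

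With the main processing the 3 falls were of similar size. Across all settings run, the lowest difference was -1.601 for PPP2R2C, -1.025 for ADM and -0.9988 for RASD1. The likeness in size thus did not hold under every setting, and PPP2R2C read close to background with RAI2-4A. PPP2R2C encodes a B-type regulatory subunit of protein phosphatase 2A, the part that selects substrates. It read 162, 184 and 187 in vector and 106, 108 and 112 in RAI2-4A. Every RAI2-4A array lay below every vector array, and PPP2R2C fell by 0.86 (SE 0.10, limma, adjusted p = 0.0043). Its second kept probe read 132, 135 and 133 in vector and 97.0, 84.2 and 88.8 in RAI2-4A, where it was above background on 0 arrays, and was at least 1.29-fold lower. Its other probes were too dim to be kept. It passed in all 9 fits that left out 1 array. Of 23 tested PP2A subunits and partners it was the only one called, and the catalytic subunit PPP2CA was not. The median of the 23 was 0.03.

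ADM encodes adrenomedullin, a vasodilator peptide known to be induced by hypoxia, and RASD1 a small GTPase known to be induced by dexamethasone. Their promoter windows are shown because both fell with both forms. ADM lies on the plus strand at chr11:10304823-10305122 and RASD1 on the minus strand at chr17:17496346-17496645 (RefSeq, GRCh38.p14).
ADM: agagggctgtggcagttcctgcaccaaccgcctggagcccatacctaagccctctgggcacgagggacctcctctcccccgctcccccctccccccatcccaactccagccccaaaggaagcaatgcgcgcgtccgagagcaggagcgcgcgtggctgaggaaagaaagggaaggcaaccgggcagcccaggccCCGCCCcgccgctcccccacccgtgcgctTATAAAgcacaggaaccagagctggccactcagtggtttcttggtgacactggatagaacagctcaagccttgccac
RASD1: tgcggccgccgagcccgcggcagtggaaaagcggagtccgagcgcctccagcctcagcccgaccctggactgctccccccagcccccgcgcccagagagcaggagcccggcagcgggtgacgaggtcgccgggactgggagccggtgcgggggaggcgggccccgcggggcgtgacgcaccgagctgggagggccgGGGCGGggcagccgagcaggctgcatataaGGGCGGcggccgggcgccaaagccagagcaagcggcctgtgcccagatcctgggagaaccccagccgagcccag
Capitals mark TATAAA at -27 and the GC box on the opposite strand at -56 for ADM, and GC boxes at -54 and -24 for RASD1. The hypoxia core, the ZEB-type E-box and the nuclear receptor motif were in neither window. The windows had GC boxes in common, which 45.0% of all windows hold.

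ADM read 3693, 4723 and 4849 in vector and 2218, 2567 and 2518 in RAI2-4A. The groups did not overlap, with vector replicate 1 nearest to the RAI2-4A arrays, and ADM fell by 0.86 (SE 0.13, limma, adjusted p = 0.0174). It no longer passed without vector replicate 2, vector replicate 3, RAI2-4A replicate 1 or RAI2-4A replicate 3 (limma, adjusted p up to 0.146), and without the 3 arrays that stood apart it fell by 1.03 and passed (limma, adjusted p = 0.0037). RASD1 read 541, 520 and 570 in vector and 312, 284 and 335 in RAI2-4A. All RAI2-4A arrays were lower, and RASD1 fell by 0.86 (SE 0.11, limma, adjusted p = 0.0067). It failed to pass only without vector replicate 3 (limma, adjusted p = 0.0547). Without the 3 arrays that stood apart RASD1 fell by 0.80, and PPP2R2C by 0.93. Of 37 tested genes of hypoxia and glycolysis, ADM was the only one called, with LDHA at 0.13, ENO1 at -0.07 and a median of -0.02. Of 22 tested glucocorticoid-responsive genes, RASD1 was the only one called, with a median of 0.02.

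Just short of the threshold stood genes with small differences in close replicates, and genes with wider spread within RAI2-4A. Among rises that did not pass, the esterase AADAC read 120, 124 and 147 in vector and 196, 212 and 189 in RAI2-4A, a difference of 0.71 (limma, adjusted p = 0.106). AADACP1, a pseudogene of this gene whose probes may also read AADAC, differed by 0.85 (limma, adjusted p = 0.124). The adaptor NCK2 differed by 0.57 and the protease BACE2 by 0.47. LIPG, an endothelial lipase, read 121, 118 and 120 in vector and 229, 138 and 193 in RAI2-4A, a difference of 0.71 (limma, adjusted p = 0.327). TGFBI, a matrix protein induced by TGF-beta, read 370, 325 and 319 in vector and 672, 428 and 521 in RAI2-4A, a difference of 0.69 (limma, adjusted p = 0.317). For both, RAI2-4A replicate 2 was the lowest of its group yet above every vector array. The second kept probe of LIPG differed by only 0.27, and its groups overlapped (limma with each kept probe tested on its own, adjusted p = 0.993). Without the 3 arrays that stood apart LIPG differed by 0.96 and TGFBI by 0.93, and both passed (limma, adjusted p = 0.0063 and 0.0198). Since those arrays were picked for their deviation, passing without them is not independent support.

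Among the differences below 0 that did not pass, AIF1L, an actin-binding protein, read 781, 1091 and 1107 in vector and 358, 525 and 491 in RAI2-4A. Its groups did not overlap, and its difference was -1.16 (SE 0.21, limma, adjusted p = 0.081). With the 3 arrays set aside its difference was -1.44, which passed (limma, adjusted p = 0.0106), and its second probe differed by -0.61. AGR2, a disulfide isomerase of secretory epithelium, differed by -0.75 (limma, adjusted p = 0.124), while its second probe differed by only -0.11. Carbonic anhydrase CA2 differed by -0.65, the calcium-binding protein S100P by -0.64, the aldo-keto reductase AKR1C2 by -0.62 and the elongation factor EEF1A2 by -0.62. The remaining differences of this kind were -0.61 for LINC01139, -0.58 for SPANXC, -0.45 for ESAM and -0.43 for TENM3. The rises that complete the set were 0.55 for FGGY, 0.51 for GPKOW, 0.51 for ZNF582 and 0.50 for NEDD9.

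Some MHC class II genes also differed without passing. HLA-DRA read 214, 191 and 166 in vector and 547, 248 and 334 in RAI2-4A. No array overlapped, yet RAI2-4A replicate 1 read more than the other arrays of its group, and the difference of 1.00 (SE 0.26) did not pass (limma, adjusted p = 0.514). HLA-DPA1 read 113, 98.0 and 104 in vector and 193, 138 and 161 in RAI2-4A, a difference of 0.77 (limma, adjusted p = 0.081). Of 21 tested genes of MHC presentation 0 were called in limma and 5 had an unadjusted p under 0.05 (4% of all genes did). All RAI2-4A arrays lay above all vector arrays for 5 of the 21 (4.99% of all genes did), and the median was 0.14. Other class II genes differed by 0.38 (HLA-DMB), 0.22 (HLA-DMA) and -0.33 (HLA-DRB1), and class I genes by 0.48 (HLA-B), 0.03 (HLA-C) and -0.04 (B2M). HLA-DRA also stands in the list of leukocyte markers, whose 10 tested members summed to 2694 to 2968 in vector and 3192 to 3472 in RAI2-4A. Of 19 leukocyte markers on the array, 6 were above background on all 6 arrays, namely CD14, CD68, FCGR3A, AIF1, CSF1R and HLA-DRA. Another 8 were above background on none, the defining genes PTPRC, CD3E, CD3D, SPI1 and TYROBP among them.

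Most transcripts stayed close to their vector level. Over all 12437 genes the median difference was 0.02, and the central 95% of genes lay between -0.29 and 0.27. For 12272 genes (98.7%) the 95% interval of the difference lay within 2-fold of no change in either direction. Among the 10072 genes above background on all 6 arrays, 94.0% had an interval within 1.5-fold. A fitted difference of 1 log2 unit or more was seen for 8 genes, 6 of them called. The other two were AIF1L and the histone gene H2AX, named after its values were seen, which read 765, 151 and 135 in vector and 92.0, 175 and 127 in RAI2-4A. The H2AX difference of -1.10 (SE 0.55, limma, adjusted p = 0.994) went with vector replicate 1 alone, and the remaining vector arrays overlapped RAI2-4A. A gene going from background on all vector arrays to above it on all RAI2-4A arrays was seen 28 times, 3 of them called, and the opposite 27 times, 0 of them called. The unadjusted p was under 0.05 for 497 genes (4%), 302 of them higher (2.43%) and 195 lower (1.57%).

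**Figure D3:**
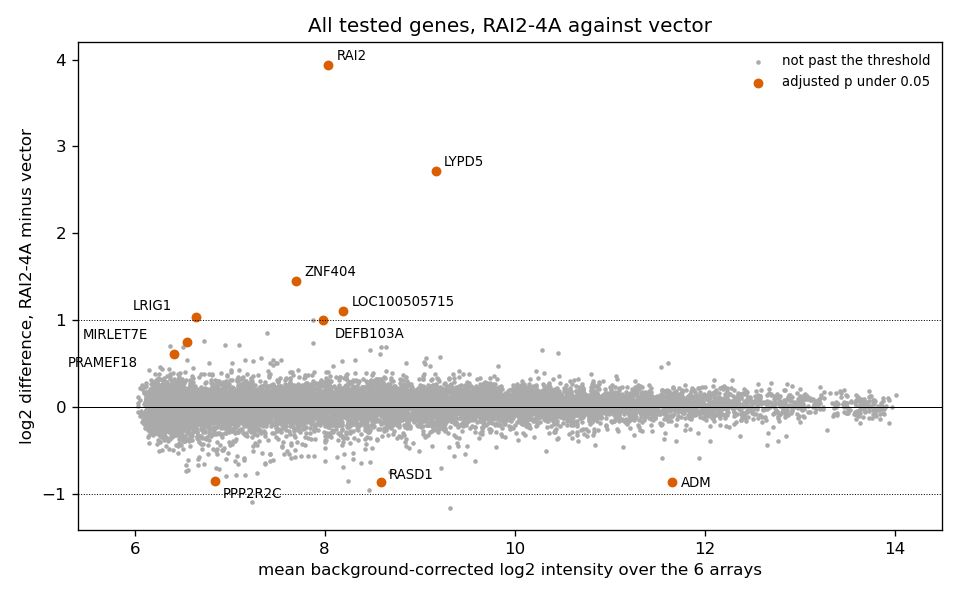
Log2 difference, RAI2-4A minus vector, against the mean background-corrected log2 intensity over the 6 arrays, 1 point per tested gene, with the 11 called genes in colour. The central 95% of genes lie between -0.29 and 0.27, and RAI2 (a fitted 3.94 from a vector probe at background) and LYPD5 at 2.72 stand highest.

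Transcripts of the CtBP proteins and their partners lay close to their vector levels. Of 18 tested genes of the CtBP corepressor complex, RAI2 was the only one called, and the median was 0.03. With 0.0884% of all genes called, the lack of calls among the others is no result about the complex. CTBP1 read 1349, 1358 and 1471 in vector and 1345, 1526 and 1571 in RAI2-4A, a difference of 0.09 with a 95% interval from -0.14 to 0.32. CTBP2 differed by -0.11 (interval -0.46 to 0.24), the deacetylase HDAC1 by 0.00 (interval -0.23 to 0.23) and the demethylase KDM1A by 0.08 (interval -0.18 to 0.33). These intervals exclude a 2-fold change in the transcripts and say nothing of the proteins.

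Of 20 tested genes that CtBP is known to repress, 0 were called in limma, 0 had an unadjusted p under 0.05, and 20 had an interval within 2-fold. Over all genes these shares were 0.0884%, 4% and 98.7%, so the counts do not set the list apart. Their median was 0.04, with a range from -0.37 to 0.23. E-cadherin (CDH1) differed by -0.02 (interval -0.27 to 0.24), at levels close to background. The cyclin-dependent kinase inhibitor CDKN1A differed by 0.20 (interval -0.05 to 0.46) and the proapoptotic gene PMAIP1 by 0.23 (interval -0.04 to 0.49). Of 23 tested genes of the BCL2 family and apoptosis, 0 were called, with a median of 0.01. Of 12 tested genes of epithelial junctions and 16 mesenchymal genes, 0 were called, and the medians were 0.00 and 0.02.

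Retinoic acid response and metabolism held 14 tested genes, from which RAI2 takes its name, and 0 were called. An unadjusted p under 0.05 was seen for 5 of them, against 4% of all genes, and the median was 0.11. PLAAT4, a retinoid-induced phospholipase, read 393, 345 and 261 in vector and 652, 389 and 542 in RAI2-4A. Its groups overlapped through vector replicate 1 and RAI2-4A replicate 2, and its difference of 0.69 (SE 0.21) did not pass (limma, adjusted p = 0.809), though it did without the 3 arrays that stood apart. The transglutaminase TGM2 differed by 0.35 and RAI14 by 0.24.

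In all, 45 lists held 836 tested genes, of which 10 (1.2%) were called and 804 had an interval within 2-fold. The share over all genes was 0.0884%, but several lists were built around called genes with these results known, so the larger share is no result about the lists. No gene was called in 35 lists, and the other 10 held 1 each. The median lay between -0.1 and 0.1 in 37 lists, and ran from -0.20 (3 endothelial genes) to 0.19 (10 leukocyte genes). Of 31 tested NF-kB and inflammatory genes 0 were called, with a median of 0.15, and the chemokine CCL2, dim in vector, had the smallest p (limma, adjusted p = 0.171). Of 40 interferon-response genes 0 were called, with a median of -0.02, and of 20 NRF2 genes 0, with a median of -0.04. Of 38 mitosis genes 0 were called (median 0.02), of 37 genes of replication 0 (median 0.00), of 43 ribosomal protein genes 0 (median -0.01) and of 43 genes of oxidative phosphorylation 0 (median 0.05). Of 26 AKT and FOXO targets 0 were called, and 23 of them lay above 0, as did 6962 of all 12437 genes. The median of the 26 was 0.09, with INPP4B, a lipid phosphatase, at 0.38. Of 30 YAP and TEAD targets 0 were called (median 0.01), and of 22 housekeeping genes 0 (median -0.03).

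**Figure D4:**
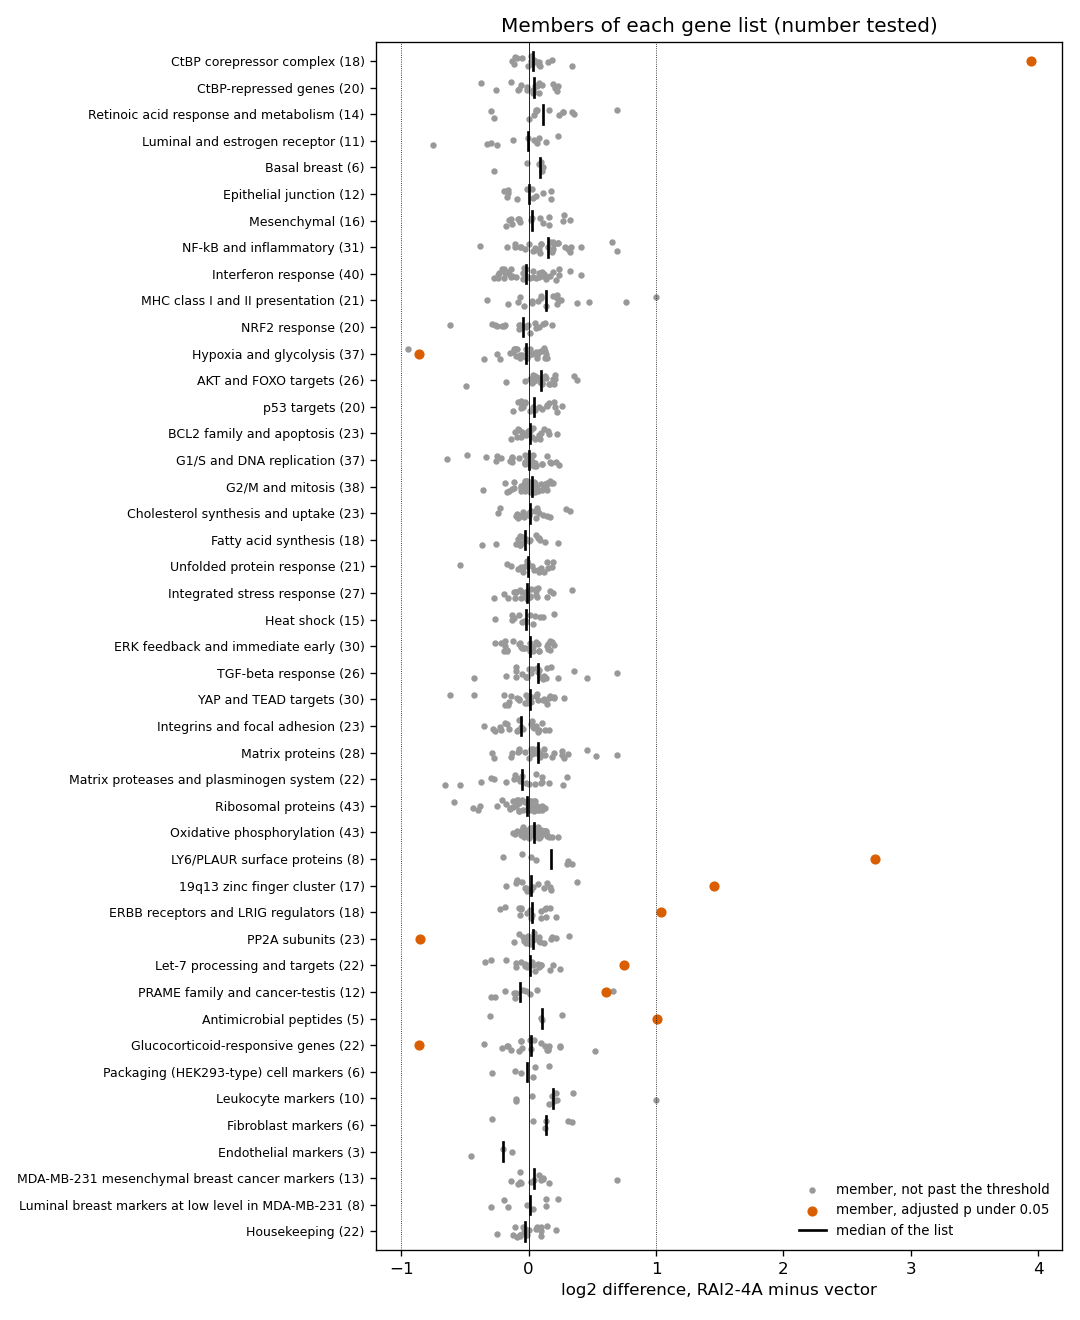
Log2 difference, RAI2-4A minus vector, of every tested member of the 45 gene lists, 1 row per list with the number tested in brackets, called members in colour and the median as a bar. The medians lie between -0.20 and 0.19, and coloured points are single members of 10 lists.

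Markers of other cell types were read as well. Of 16 markers of HEK293-type packaging cells on the array, 3 were above background on all 6 arrays, namely NR2F1, CDH2 and TUBB3. Another 8 were above background on none, LIN28B, NEFM and LHX1 among them, and 5 on some. The 6 tested packaging cell markers summed to 1630 to 1863 in vector and 1485 to 1620 in RAI2-4A. Of 11 endothelial markers, 1 was above background on all 6 arrays, ESAM, and 6 on none, the defining genes CDH5 and VWF among them. The 3 tested endothelial members summed to 1184 to 1453 in vector and 944 to 1030 in RAI2-4A. Most of this sum was ESAM, which read 1201, 1035 and 984 in vector and 767, 759 and 838 in RAI2-4A. Of 12 fibroblast markers on the array, 4 were above background on all 6 arrays, namely COL1A2, LUM, PDGFRB and ACTA2. Another 2, THY1 and DPT, were above it on none, and 6 on some. The 6 tested fibroblast members summed to 762 to 815 in vector and 852 to 879 in RAI2-4A. The 3 sums did not overlap between the groups, but they describe the tested members and not the whole marker lists. The part of other cells in the results was not tested.

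RAI2-4A was also set beside RAI2. RAI2 against the same vector arrays gave 52 called genes (0.418%), and RAI2-4A against RAI2 gave 47 (0.378%). Both comparisons with vector share the 3 vector arrays, so only the direct contrast tests whether the forms differ. Of the 11 genes called for RAI2-4A, 9 also differed directly from RAI2. LYPD5 read 168, 177 and 201 with RAI2, all within or below the vector range, and was 3.22 log2 units higher with RAI2-4A (limma, adjusted p = 5.3e-05). The direct difference was 1.57 for ZNF404, 1.37 for LOC100505715 and -0.76 for PPP2R2C. MIRLET7E and PRAMEF18 were above background on 0 RAI2 arrays, and were at least 1.41-fold and 1.25-fold higher with RAI2-4A (limma, adjusted p = 0.0012 and 0.0035). Here too both were tested only because the RAI2-4A arrays passed the filter. The direct difference was -1.85 for DEFB103A (limma, adjusted p = 0.000118) and -0.91 for LRIG1 (limma, adjusted p = 0.0136), which were both higher with RAI2.

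ADM and RASD1 were the exceptions. With RAI2, ADM read 2208, 2113 and 2506 and RASD1 read 253, 302 and 284. Both sets overlapped the RAI2-4A values. The direct difference was 0.10 for ADM (95% interval -0.18 to 0.37) and 0.16 for RASD1 (interval -0.08 to 0.40). Either interval excludes a 1.5-fold difference between the forms, and a difference under that size cannot be judged from 3 arrays.

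**Figure D5:**
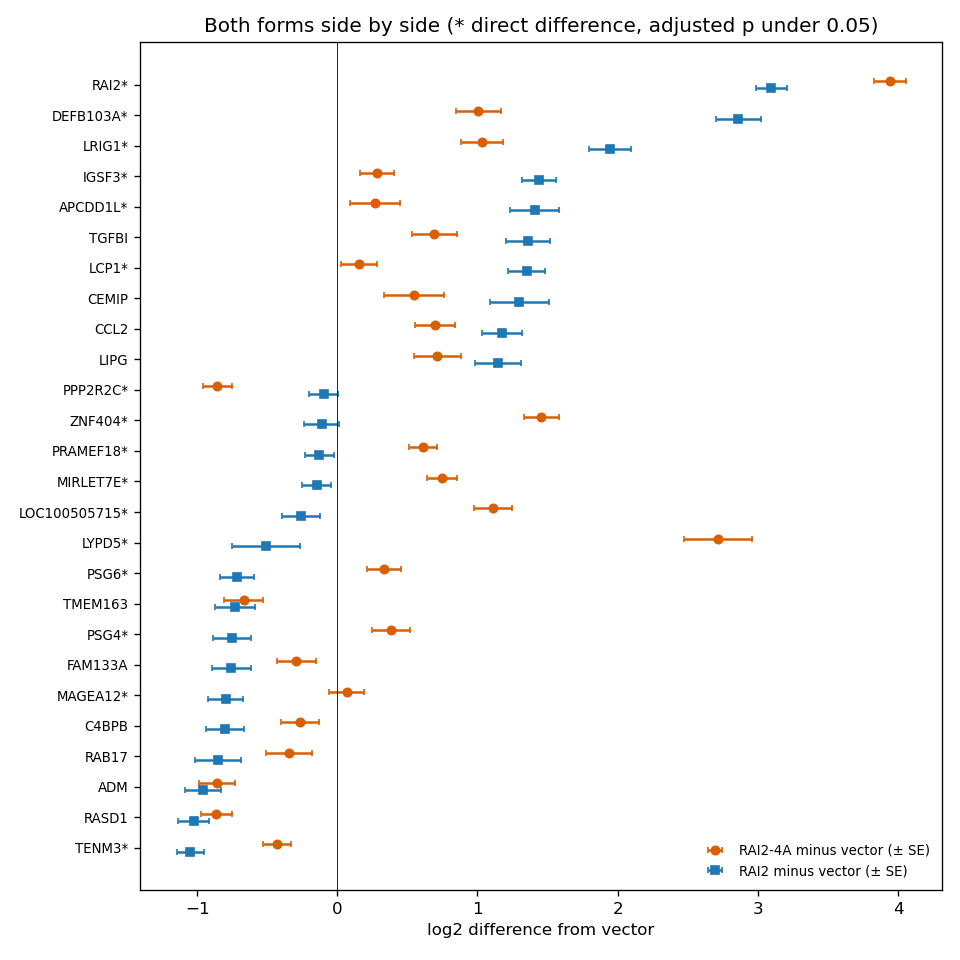
Log2 difference from vector (± SE of the limma fit, 3 arrays per group) of the genes called for RAI2-4A and the largest rises and falls called for RAI2, RAI2-4A as circles and RAI2 as squares, with an asterisk where the direct difference passed. For RAI2, LRIG1, MIRLET7E, PRAMEF18, IGSF3 and CCL2 the vector probe was at background and the plotted size is a fitted value. Both sets of points rest on the same 3 vector arrays. LYPD5, ZNF404 and LOC100505715 are displaced for RAI2-4A, whereas LCP1 and APCDD1L are displaced for RAI2.

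Of the genes called for RAI2, 47 were not called for RAI2-4A (37 rises and 10 falls with RAI2). The RAI2-4A interval lay within 2-fold of no change for 43 of them and covered 0 for 22, while it lay above 0 for 20 and below 0 for 5. The direct difference passed for 17 and did not for 30, so for most of them the forms were not separated. LCP1, an actin-bundling protein, read 126, 103 and 120 in vector, 125, 136 and 120 in RAI2-4A and 248, 239 and 294 in RAI2. Its RAI2-4A difference was 0.16 (interval -0.12 to 0.44) and its direct difference -1.19 (limma, adjusted p = 0.000726). APCDD1L differed by 0.27 with RAI2-4A and by 1.41 with RAI2, with a direct difference of -1.14. IGSF3, an immunoglobulin superfamily protein, was above background on 0 vector, 2 RAI2-4A and 3 RAI2 arrays. It was at least 1.04-fold higher than vector with RAI2-4A, which did not pass, and at least 2.03-fold higher with RAI2, with a direct difference of -1.15. Directly, the forms also differed in the cancer-testis gene MAGEA12, at 0.07 for RAI2-4A and -0.80 for RAI2.

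PSG4 and PSG6 encode pregnancy-specific glycoproteins. PSG4 read 600, 668 and 736 in vector, 926, 847 and 818 in RAI2-4A and 491, 360 and 377 in RAI2. The RAI2-4A difference of 0.38 did not pass (limma, adjusted p = 0.994) and the RAI2 difference was -0.75, while the direct difference was 1.13 (limma, adjusted p = 0.0012). PSG6 gave 0.34, -0.71 and 1.05, and since PSG genes are near-identical in sequence their probes may read one another. CA2 showed the opposite order, at 167, 217 and 200 in vector, 131, 127 and 138 in RAI2-4A and 275, 238 and 331 in RAI2, with a direct difference of -1.24 (limma, adjusted p = 0.0011). TENM3, a teneurin, lay between, at -0.43 for RAI2-4A and -1.05 for RAI2, and the direct difference of 0.62 passed (limma, adjusted p = 0.0126).

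Several genes that RAI2 changed leaned the same way with RAI2-4A without passing, and the forms could not be separated. TGFBI stood at 0.69 with RAI2-4A and 1.36 with RAI2, with a direct difference of -0.67 (limma, adjusted p = 0.158). LIPG stood at 0.71 and 1.15, and CEMIP at 0.55 and 1.30, with direct differences of -0.43 and -0.75. CCL2 was above background on 0 vector arrays, and stood at least 1.36-fold above vector with RAI2-4A and at least 1.81-fold with RAI2, with a direct difference of -0.48. Among genes lower with RAI2, RAB17 stood at -0.34 and -0.85, C4BPB at -0.27 and -0.80 and FAM133A at -0.29 and -0.76. TMEM163 differed by -0.67 with RAI2-4A, where 2 arrays were above background, and was at least 1.37-fold lower with RAI2, where 0 were. None of these 8 direct differences passed, which does not show that the forms act alike.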

How the data were processed

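Transcripts were measured on 9 single-colour bead arrays, 3 per group. The values are the authors' deposited probe intensities, not logged, for 47323 probes. BeadStudio and limma are named in the submitters' processing notes without version, and the between-array normalization is not given in the sources used here. Array medians were 98.5 to 99.5, so no further normalization was applied. A further 18 deposited columns match no sample's labels and were not used. Missing values excluded 3 probes. Background was corrected with limma's normexp (saddle-point fit, offset 50) before log2. The background threshold was each array's mode plus 1.645 SD (density bandwidth 0.03). A probe had to exceed it on 3 or more arrays, which left 22399 probes. The platform annotation names 1 symbol for 30113 probes, several for 8 and none for 17202, and 30074 were found in the RefSeq table of GRCh38.p14.

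The brightest kept probe stood for each gene. limma 3.58.1 in R 4.3.3 was fitted over all 9 arrays (lmFit, contrasts.fit, eBayes, 6 residual degrees of freedom), with Benjamini-Hochberg adjustment over 12437 genes per contrast. For a bound, the brighter group's mean log2 deposited intensity was set against the dimmest signal above background on each array of the dim group, or the probe's own signal where higher. After background correction these bounds are larger (12.97-fold for RAI2). Tested on simulated data for RAI2-4A against vector (12437 genes, 200 changed), the fit recovered 62% of genes changed by 0.5 log2 units and 100% of those changed by 1 or by 2, with 6.22% false calls. Independent noise was simulated, so deviations shared between genes are not covered. With 200 changed genes the adjusted threshold is easier to pass than with the 11 calls made here, so these recovery rates do not carry over to the data. In the data HLA-DRA at 1.00 and NCK2 at 0.57 did not pass.

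The members, gene lists and rule for named genes were chosen with earlier results of these data known. The rule took all called genes with their other probes and their 2 neighbours on each side, the 10 smallest p in each direction among non-overlapping genes above background on all 6 arrays and not called, the 2 brightest members and that of smallest p in each list, and the 10 largest rises and falls called for RAI2. List members beyond these, namely CTBP1, CTBP2, KDM1A, CDH1, CDKN1A, HLA-B, HLA-C, HLA-DMA, HLA-DMB and HLA-DRB1, as well as FCGBP and H2AX, were chosen after their values were seen. Same-numbered vector and RAI2-4A arrays had residual correlations of -0.295, -0.434 and 0.185. The first axis of the residuals held 53.4% of their variation, so these values cannot settle whether the numbers pair the arrays. The alternatives changed the normalization, background correction, filter, choice of probe, variance model, weights, samples in the fit, replicate block and residual axis, or left out arrays.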

Additional observations from a re-analysis of the deposited data

Results flagged for a closer look

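For 21 of the genes named here, the effect of RAI2-4A differed from that of RAI2 by the direct contrast of the forms (limma, adjusted p under 0.05), given as log2 differences, RAI2-4A minus RAI2. Higher with RAI2-4A were LYPD5 (3.22), ZNF404 (1.57), LOC100505715 (1.37), AADACP1 (1.22), PSG4 (1.13), PSG6 (1.05), AADAC (0.98), MIRLET7E (0.89), MAGEA12 (0.86), ZNF582 (0.86), RAI2 (0.85), PRAMEF18 (0.74) and TENM3 (0.62). Lower with RAI2-4A were PPP2R2C (-0.76), LRIG1 (-0.91), APCDD1L (-1.14), IGSF3 (-1.15), LCP1 (-1.19), CA2 (-1.24), AIF1L (-1.42) and DEFB103A (-1.85). The genes were named for large differences from vector with either form, and 0.378% of all 12437 genes passed this contrast. The values for MIRLET7E and PRAMEF18 are fitted against probes at background with RAI2.

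AADAC, AADACP1 and ZNF582 had mean levels above vector with RAI2-4A and below it with RAI2, and neither difference from vector passed. AIF1L and CA2 lay below vector with RAI2-4A, at -1.16 and -0.65, and above it with RAI2, at 0.26 and 0.58, again with none of these differences past the threshold. In AIF1L and CA2 all 3 RAI2-4A arrays lay below all 3 RAI2 arrays.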

How the results depend on the processing

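The 11 genes called for RAI2-4A against vector (8 higher, 3 lower) became 6 (4 higher) under the stricter filter, 7 (5 higher) with every kept probe tested on its own (without LRIG1, DEFB103A, ADM and PRAMEF18), and 7 (5 higher) with only the 6 arrays of the comparison. They became 17 (13 higher) with a trended robust variance, 25 (17 higher, 8 lower) with array weights, 52 (24 higher, 28 lower) with the residual axis as covariate, and 17 (5 lower) without the 3 arrays that stood apart. The covariate is itself built from the residuals, and the 3 arrays were picked for deviating from their groups, so both settings reduce the spread by construction. With arrays left out in turn the count ran from 5 (without vector replicate 3) to 11, the rises from 4 to 8 and the falls from 1 to 4. The 10 called list members became 5 under the stricter filter, 6 by probe, 6 with the 6 arrays and 18 with the residual axis, and ran from 4 (without vector replicate 3) to 9 with arrays left out. Genes with an interval within 2-fold numbered 19896 of 20045 without a filter. Of the called genes, 4 in place of 9 differed directly from RAI2 under the stricter filter, which drops RAI2, PPP2R2C, LRIG1, MIRLET7E and PRAMEF18. No called difference changed direction, and the other causes were not tested.

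Whether the replicate numbers pair the arrays is not given in the labels. With the numbers as a replicate block over all 9 arrays 9 genes were called (5 higher, 4 lower), 8 of them among the 11, with AIF1L added and DEFB103A, MIRLET7E and PRAMEF18 lost. A slide block was not run, since no slide is given. LYPD5, ZNF404 and LOC100505715 passed under all settings run, and RAI2 and PPP2R2C under all that kept their probes. The number of arrays and the nearness to background of LRIG1, MIRLET7E, PRAMEF18 and PPP2R2C limit what these values can show.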
